A study of Mus musculus with 3 samples.

Results

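The matrix metalloproteases, the ADAM and ADAMTS metalloproteases and the tissue inhibitors of metalloproteases (TIMPs) were examined in CT26, a mouse colon carcinoma line grown in culture. Genes were taken by symbol: every probe set listed under a single gene whose symbol is Mmp, Adam, Adamts or Timp followed by a digit, with the ADAMTS-like genes left out, and averaged per gene. This gave 78 of 19938 genes on the array, namely 22 Mmp, 34 Adam, 18 Adamts and 4 Timp genes, held by 102 probe sets. Mmp15 and Adamts2 are not analysed here.

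These proteins remodel the surroundings of cells. Matrix metalloproteases (MMPs) are zinc enzymes that cut collagens and other matrix proteins, ADAMs cut the outer parts of membrane proteins off the cell surface (shedding), and ADAMTS enzymes are secreted and process proteoglycans and procollagens. TIMPs bind in the active site of these enzymes and block them. In colon carcinoma such proteases are studied for their part in invasion and in the release of growth factors.

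The groups were miR-Ctrl (here Ctrl), in which a control microRNA was expressed, miR-17~92Med (Med), with the microRNA cluster of that name at a medium level, and miR-17~92Hi (Hi), with the cluster at a high level. All 3 had been stably transfected with a PIG vector, put through puromycin selection and a sort for GFP, and then cloned by dilution. The sources used here do not name the promoter that drove the insert. The design text counts 3 subclones per group, but each group has 1 column of log2 array values, and the sources used here do not say if that column is one subclone, a pool or a mean. No difference below therefore has an SD or a p-value. Differences between clones cannot be told apart from differences between levels of the cluster, and "higher" or "lower" refers to the columns and not to the conditions. All cells were one cultured line, and a lower level in all cells cannot be told apart from loss of the RNA in some of them.

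The Ctrl column stood apart from the other two. Its 4 single-gene probe sets of mitochondrially encoded mRNAs read 4.98 to 6.16 on the log2 scale, against 12.3 to 13.5 in Med and 12.1 to 13.4 in Hi. Background was gauged on 1190 genes of odorant and pheromone receptors (Olfr, Vmn1r and Vmn2r symbols), whose known place is the nose. Their 95th percentile was 6.87 in Ctrl, 6.17 in Med and 6.20 in Hi. A gene above that percentile of its column is called above background. Relative to Ctrl their median difference was -0.39 in Med and -0.38 in Hi. At least 2-fold lower were 81 and 76 of them, and 0 were that much higher. Of 10 markers of intestinal epithelium 5 were above background in each column, among them Krt18 (7.97, 11.41 and 12.28 in Ctrl, Med and Hi) and its partner Krt8, which went the other way (8.92, 7.28 and 7.32), while Epcam (6.15, 5.14 and 5.14), Vil1 and Cdx2 were not in any. The part of these column differences in each result against Ctrl was not tested.

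Most of the metalloprotease and TIMP genes were near background. Above background were 33 of the 78 in the Ctrl column (42.3%), 34 in that of Med (43.6%) and 33 in that of Hi (42.3%), against 60.6%, 63.9% and 64.0% of all genes. In all 3 columns 28 were above it and in no column 40. Genes with a mean over the columns at or above 7.13, the median of all genes, passed an expression filter. It left 20 of the 78: 6 Mmp, 7 Adam, 5 Adamts and 2 Timp genes. The other 58 did not pass and are described separately.

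**Figure D1:**
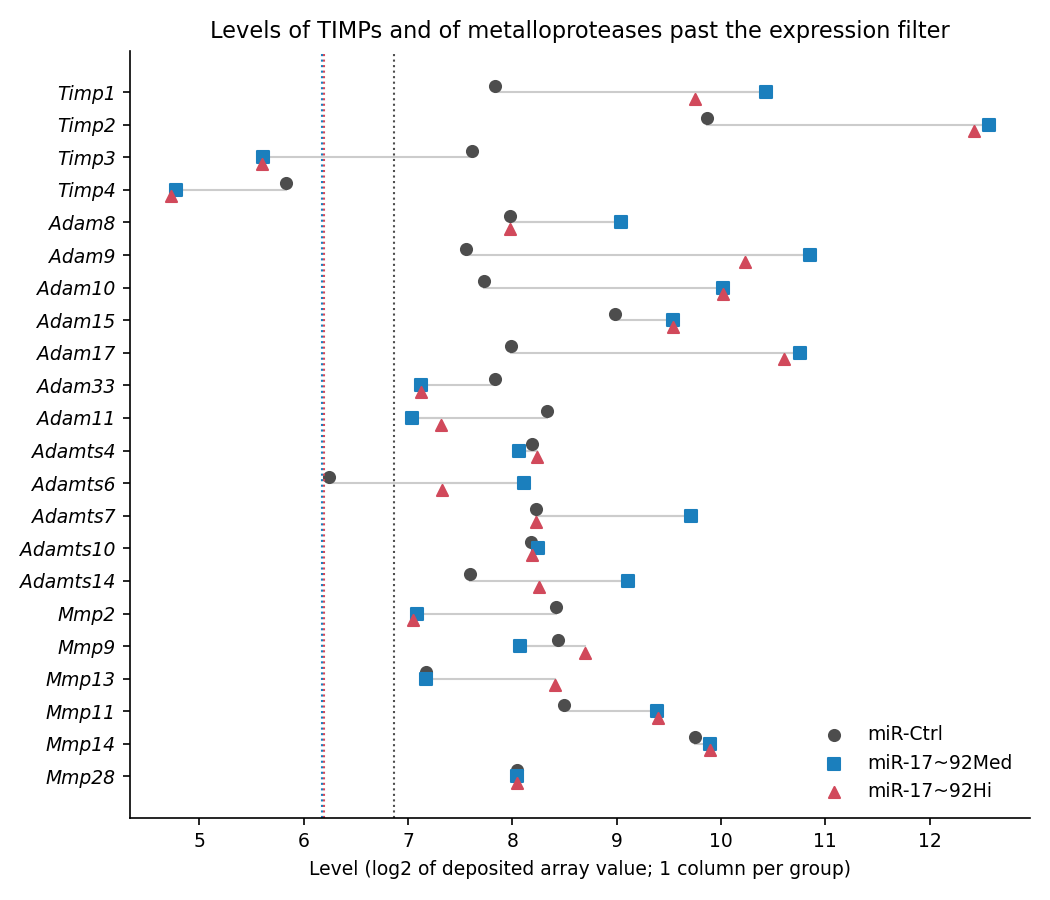
Log2 level (horizontal axis) of the 20 Mmp, Adam, Adamts and Timp genes past the expression filter and of Timp3 and Timp4, which are under it, in the Ctrl, Med and Hi columns (1 point per column, no error). Dotted lines mark the 95th percentile of receptor genes in each column (6.87, 6.17 and 6.20). For Timp2, Adam9, Adam10, Adam17 and Timp1 both the Med and the Hi point lie to the right of the Ctrl point.

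Among the genes past the filter, 3 sheddases, 2 inhibitors and Adamts6 stood more than 2-fold above Ctrl with either level of the cluster. The gelatinase Mmp2 and Adam11 stood more than 2-fold below it. In Med 9 of the 20 exceeded Ctrl by 2-fold or more and 2 were as far below it, beside 34.9% and 8.7% of all genes past the filter. In Hi 7 exceeded Ctrl and 2 were below it, beside 33.5% and 8.4% of all genes past the filter. The medians over the 20 genes were 0.72 and 0.41 on the log2 difference scale, beside 0.42 and 0.39 over all genes past the filter. The counts of higher genes (9 and 7 of 20) are near the share of all genes and say nothing particular to these families. Both comparisons share the Ctrl column.

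How the columns are scaled moves these counts. Centring the columns on genes past the filter left 6 genes above and 3 below Ctrl in Med, and 5 above and 3 below in Hi. The shares of all genes past the filter were then 22.9% and 17.5% in Med, and 22.4% and 16.4% in Hi. Centring on all probe sets gave 8 higher and 1 lower in Hi, beside 40.6% and 4.17% of all genes past the filter. Over all genes past the filter, quantile normalization gave 25.6% higher and 17.6% lower in Med, and 25.2% and 16.6% in Hi. The median of all genes past the filter moved by -0.60 to 0.30 in Med against Ctrl over the 4 scalings tried. Under each of those scalings 8 of the 11 genes called in Med and 6 of the 9 called in Hi kept a 2-fold difference of the same sign: Adam9, Adam10, Adam17, Timp1, Timp2 and Mmp2 in both, with Adamts6 and Adam11 in Med only.

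Of the 22 Mmp genes 6 passed the filter, and no more than 1 was 2-fold higher in any comparison. Mmp13, the main collagenase of rodents, read 7.17 in Ctrl, 7.17 in Med and 8.41 in Hi. Hi alone was high, and the Ctrl and Med values were identical. Hi was 2.36-fold above each (log2 difference 1.24), which centring on genes past the filter brought to 0.70 against Ctrl.

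Mmp2, the gelatinase that cuts basement membrane collagen, read 8.42 in Ctrl, 7.08 in Med and 7.05 in Hi. It was 2.53-fold lower in Med and 2.60-fold lower in Hi than in Ctrl. Prm1, a sperm protein gene with no known use in these cells, read 8.81, 6.99 and 6.99, a difference of -1.82 from Ctrl in both. Of 6 germ cell markers 3, 2 and 2 were above background in Ctrl, Med and Hi, and their summed level as log2 was 9.83, 8.52 and 8.53. The part of such shifts in the value of Mmp2 was not tested. Mmp9, the other gelatinase, read 8.43, 8.08 and 8.70, Hi being highest and Med lowest. Its Hi minus Ctrl difference of 0.27 changed sign with the scaling (-0.34 to 0.55).

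Mmp14, a membrane-anchored protease that activates the Mmp2 zymogen, read 9.75 in Ctrl and 9.90 in both Med and Hi. The sign of its 0.15 difference from Ctrl depended on the scaling (-0.96 to 0.44 in Med). Mmp11, known from tumour stroma, read 8.49, 9.38 and 9.39, which is below 2-fold. Mmp28 read 8.05 in all 3 columns.

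Mmp13 is the first of 10 Mmp genes that lie in a row on chromosome 9 with 0 other protein-coding genes between the first and last, and it alone of them passed the filter. In gene order the others were Mmp12, Mmp1b, Mmp3, Mmp1a, Mmp10, Mmp8, Mmp27, Mmp20 and Mmp7. Mmp3, the stromelysin that activates other MMPs, read 6.42 in all 3 columns. Mmp10 read 6.46, 6.53 and 6.46. Apart from Mmp13, Hi minus Med was between -0.08 and 0 over the row, while 1.24 was measured for Mmp13. Against Ctrl the largest difference (-1.32) was that of Mmp8, a neutrophil collagenase (5.72, 4.40 and 4.40), at levels under background in every column. Mmp1a and Mmp1b are close copies whose signals a probe set may share, and their values are uncertain.

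**Figure D2:**
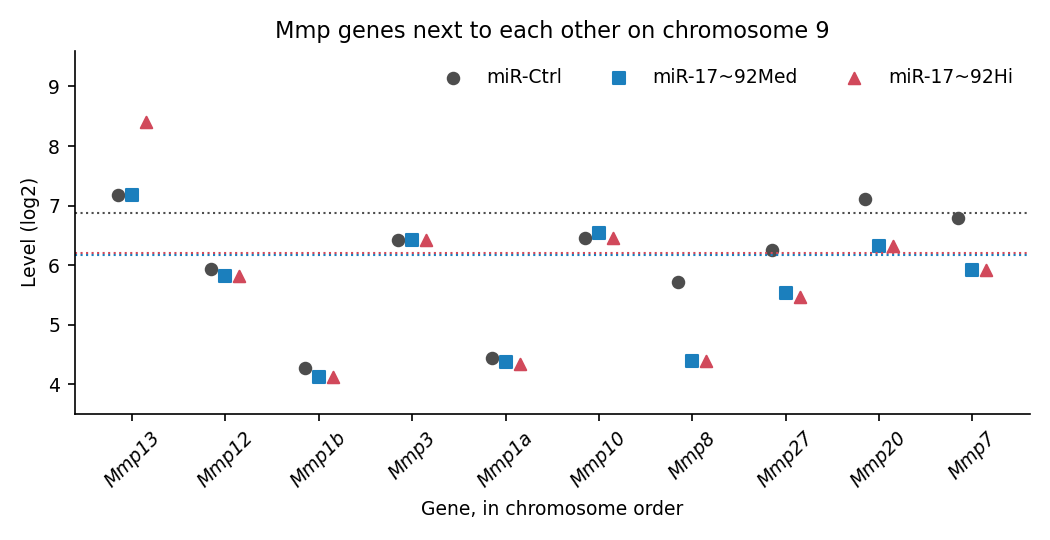
Log2 levels of the 10 neighbouring Mmp genes of chromosome 9 in their order along the chromosome, in Ctrl, Med and Hi (1 point per column, no error). Dotted lines mark the 95th percentile of receptor genes in each column. Mmp13 is the only gene of the row whose Hi point (8.41) lies above both its Ctrl and its Med point (7.17 each).

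Some promoters of this row are shown because members of the row share letters that the choice of genes did not use. AP-1, a transcription factor of growth and stress signalling, is known to bind TGAGTCA and TGACTCA, and TATAAA is the core of the TATA box. The search used the wider form TGANTCA, which also takes in TGAATCA. RefSeq windows from 250 bases before to 50 after a transcript start (GRCm38.p6) were searched for TGANTCA, whose reverse complement has the same form, and for TATAAA on the strand of the gene. A match of one cannot overlap a match of the other. The 100 bases before the start follow, 5′ to 3′ on the gene's strand, which is + for each, with matches in capitals.
Mmp13 (chr9:7272414-7272513): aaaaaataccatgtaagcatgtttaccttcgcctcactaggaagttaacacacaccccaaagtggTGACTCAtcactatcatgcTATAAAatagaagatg
Mmp3 (chr9:7445722-7445821): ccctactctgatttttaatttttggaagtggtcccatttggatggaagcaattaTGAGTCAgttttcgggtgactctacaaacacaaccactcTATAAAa
Mmp10 (chr9:7502242-7502341): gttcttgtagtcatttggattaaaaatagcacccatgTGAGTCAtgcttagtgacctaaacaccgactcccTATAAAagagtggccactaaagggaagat
Mmp1a (chr9:7464041-7464140): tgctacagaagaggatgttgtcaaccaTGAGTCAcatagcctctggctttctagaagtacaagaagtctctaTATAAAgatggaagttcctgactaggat
Mmp7 (chr9:7691990-7692089): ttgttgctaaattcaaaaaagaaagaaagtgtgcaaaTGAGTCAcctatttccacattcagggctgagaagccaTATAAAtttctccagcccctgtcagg
Mmp8 (chr9:7558329-7558428): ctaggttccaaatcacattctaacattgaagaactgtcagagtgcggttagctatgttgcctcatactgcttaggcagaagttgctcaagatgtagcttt

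Mmp13 has TGACTCA starting 35 bases and TATAAA 16 bases before the listed start. Mmp3, Mmp10, Mmp1a and Mmp7 have TGAGTCA in place of it, starting 46, 63, 73 and 63 bases before the start. Mmp8 has neither motif in its window, and nor does Mmp27, whose sequence is not shown. Of 12 windows of the 10 genes 8 held both motifs (66.7%), as did 0.995% of 32851 windows of all genes and 2.44% of 41 windows of the other metalloprotease and TIMP genes. In the Mmp12 window among the 8, TATAAA lies after the start and so is not placed as a TATA box. In the others the TATAAA nearest the start begins at unlike distances before it. These are 7 bases (Mmp3), 16 (Mmp13), 26 (Mmp7), 28 (Mmp1a), 29 (Mmp10), 49 (Mmp1b) and 58 (Mmp20). Whether any of them serves as a TATA box was not tested. Counted singly, TGANTCA was in 7.81% of all windows and TATAAA in 8.32%. The wider form counts TGAATCA too, which is the match in the Mmp20 window among the 8. Neighbouring Mmp genes are paralogs, so their windows are not independent. Mmp3 and Mmp13 both hold the motifs and differ in their values above: Mmp13 was higher in Hi and Mmp3 was identical in the 3 columns. A match describes letters and is not a measured site.

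Among the remaining Mmp genes none passed the filter. Mmp17 and Mmp24, which are membrane-type enzymes, read 7.95, 6.37 and 6.66, and 7.92, 6.58 and 6.67. Both were highest in Ctrl and above background in each column. Mmp21 read 6.94, 5.54 and 5.75, above background in Ctrl alone. Mmp19 went the other way, at 6.57, 7.42 and 7.19, above background in Med and Hi only. Over the 22 Mmp genes 0 were 2-fold above and 5 below Ctrl in Med, and 1 above and 6 below in Hi. With no filter 18.3% of all genes were above and 16.3% below in Med, and 17.5% and 15.4% in Hi.

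Of the protease groups, the catalytic ADAMs held the most genes at least 2-fold above Ctrl in Med (4). Adam9, a widely expressed membrane protease, read 7.55 in Ctrl, 10.85 in Med and 10.23 in Hi. Both Med and Hi were high, Med more so. It was 9.86-fold above Ctrl in Med and 6.40-fold in Hi, log2 differences of 3.30 and 2.68, which were at least 2.63 and 2.14 under the 4 scalings.

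Adam17, the enzyme that releases TNF and several EGF receptor ligands, read 7.99, 10.75 and 10.60. It was 6.79-fold and 6.10-fold above Ctrl in Med and Hi. Adam10, the sheddase of Notch receptors and cadherins, read 7.73 in Ctrl and 10.02 in both Med and Hi, which is 4.92-fold. Between Hi and Med the difference was -0.15 for Adam17 and 0 for Adam10.

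Adam8, known from leukocytes and tumour cells, was high in Med alone: 7.97 in Ctrl, 9.04 in Med and 7.97 in Hi. It was 2.09-fold higher in Med than in each of the others, whose values were identical. Against Ctrl this was under 2-fold with 3 of 4 scalings (log2 difference down to 0.47). Leukocyte markers were above background in 4, 2 and 3 of 11 in Ctrl, Med and Hi, Ptprc in none. Their summed level, as log2, was 10.13, 10.03 and 9.45, and Cd68 read 7.18, 9.12 and 7.67. The other 10 leukocyte markers were lower in Med than in Ctrl. Their part in the value of Adam8 was not tested.

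Adam15 read 8.98 in Ctrl and 9.54 in both others, and its direction depended on the scaling (-0.34 to 0.85 in Med). Adam33 read 7.83, 7.12 and 7.12. Adam11, a neuronal family member without protease activity, read 8.34, 7.03 and 7.31, which is 2.46-fold and 2.03-fold lower than Ctrl. In Hi that difference was under 2-fold with columns centred on all probe sets (-0.73) and with loess (-0.99). Adam12 (6.64, 6.07 and 6.07) and Adam19 (6.70, 5.58 and 5.58), which are known from muscle and heart development, were under background in each column.

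Of the 9 catalytic ADAMs of somatic tissues those 4 exceeded Ctrl by 2-fold in Med and 1 (Adam19) was as far below it. In Hi 3 were above and 1 below. The shares of all genes with no filter were 18.3% above and 16.3% below in Med, and 17.5% and 15.4% in Hi. The other 22 Adam genes, most of them known from testis or epididymis, passed the filter in 0 cases, with 1 above and 2 below Ctrl by 2-fold in each comparison. The one above was Adam4, at 5.73, 7.25 and 7.22. A probe set shared between Adam4 and Gm4787, which the choice of genes left out, read 5.34, 5.86 and 5.88, so the value of Adam4 is uncertain. Values are also uncertain for the close copies Adam26a and Adam26b, Adam34 and Adam34l, Adam6a and Adam6b, and Adam1a and Adam1b, all under background. Of these, Adam26a, Adam26b, Adam34 and Adam34l have a shared probe set that was left out. On chromosome 8, Adam9 ends a row of 5 neighbouring Adam genes, and Adam18, Adam3, Adam5 and Adam32 were all under background, between 4.29 and 6.77.

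Of the 18 Adamts genes 5 passed the filter, of which 3 were at least 2-fold above Ctrl in Med and 1 in Hi, beside 34.9% and 33.5% of all genes past the filter. Over the 18 with no filter 6 were as far below Ctrl in Med and 6 in Hi, beside 16.3% and 15.4% of all genes. Adamts14, a procollagen N-proteinase, read 7.60, 9.11 and 8.26, highest in Med. Adamts6 read 6.25, 8.11 and 7.33 and was under background in Ctrl alone. Adamts7, which cuts cartilage oligomeric matrix protein, read 8.22 in Ctrl, 9.71 in Med and 8.22 in Hi.

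Adamts7 thus had the pattern of Adam8, with Med high and the other values identical. Against Ctrl in Med, the folds were 2.85 for Adamts14, 3.65 for Adamts6 and 2.81 for Adamts7. The call for Adamts7 was lost with 3 of 4 scalings (log2 difference down to 0.81) and that for Adamts14 with 1 (0.91). In Hi against Ctrl only Adamts6 was called, at 2.12-fold, and centring on genes past the filter brought its log2 difference to 0.54.

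The aggrecanase and versicanase group held 7 genes, of which 1 (Adamts4) passed the filter. With no filter 0 of the 7 were 2-fold above Ctrl and 3 were as far below it, in Med and in Hi. The 3 were Adamts1, Adamts9 and Adamts15. The shares of all genes were then 18.3% above and 16.3% below in Med, and 17.5% and 15.4% in Hi. Adamts9 read 7.33, 6.25 and 6.26, above background in each column. Adamts4, a main aggrecanase, read 8.19, 8.07 and 8.24. Adamts5 read 6.11, 5.39 and 5.40, under background in each column. Adamts1, which cuts versican and aggrecan, read 7.06, 5.86 and 5.76 and was above background in Ctrl alone. Adamts10, an enzyme tied to microfibrils, read 8.18, 8.25 and 8.19.

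Adamts3, Adamts9 and Adamts17 are the 3 genes with several probe sets, and all were under the filter. The 16 probe sets of Adamts3 read from 4.16 to 8.58 in Ctrl, and each was lower in Med than in Ctrl, by -2.40 to -0.24 on the log2 scale. Of these 6 were at least 2-fold lower in Med and 7 in Hi, beside 24% and 22.5% of all genes under the filter. Only 6, 4 and 5 of the 16 were above background in Ctrl, Med and Hi. The 6 of Adamts9 differed by -1.69 to -0.76 and the 5 of Adamts17 by -1.22 to -0.30. Above background in each column were 3 probe sets of Adamts9 and 2 of Adamts17. All differences of the 3 genes from Ctrl ran one way. Lower values in Med were common near background: 53 of the 58 genes under the filter and 1007 of the 1190 receptor genes.

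**Figure D3:**
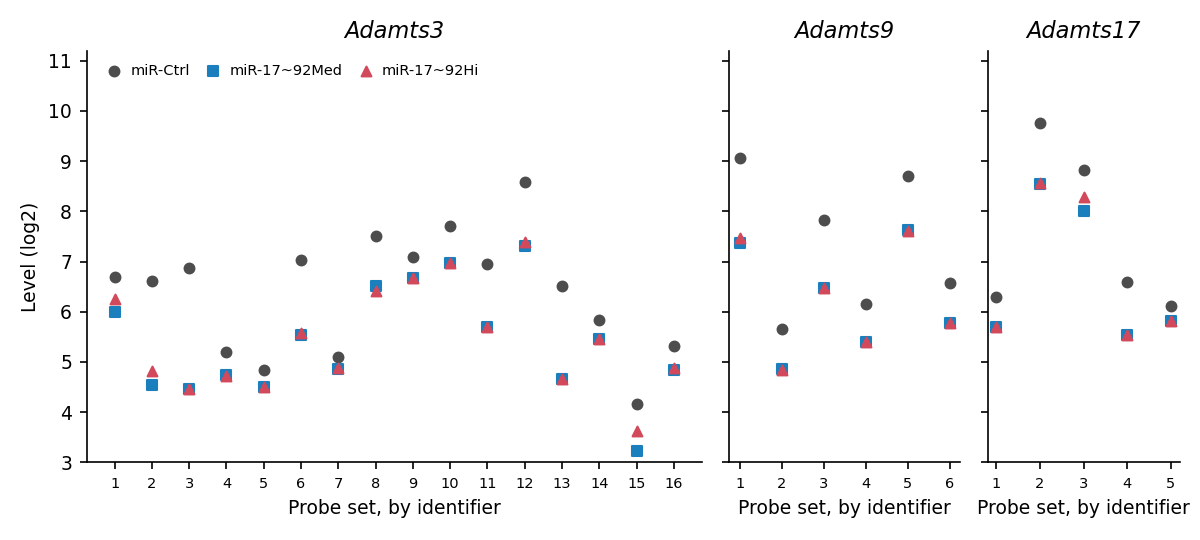
Log2 level of each probe set of Adamts3 (16), Adamts9 (6) and Adamts17 (5) in the Ctrl, Med and Hi columns, ordered by identifier. For every probe set the Med and Hi points lie below the Ctrl point. Those of Adamts3 run from 4.16 to 8.58 in Ctrl and from 3.23 to 7.31 in Med.

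Of the 4 inhibitors, Timp1 and Timp2 were above Ctrl in Med and Hi, Timp3 was below it, and Timp4 was at background throughout. Timp2, which also helps Mmp14 to activate Mmp2, read 9.87 in Ctrl, 12.57 in Med and 12.43 in Hi. Timp1, a secreted inhibitor with growth factor activity, read 7.83, 10.43 and 9.76. Both were lowest in Ctrl, though above background there as well.

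Timp2 was 6.50-fold and 5.90-fold above Ctrl, and Timp1 6.08-fold and 3.80-fold. Under the 4 scalings the Med difference stayed between 1.45 and 3.00 for Timp2 and between 1.96 and 2.90 for Timp1. Timp3, which is held in the matrix and also inhibits Adam17, was high in Ctrl alone, at 7.62, 5.61 and 5.60. It did not pass the filter and was under background in Med and Hi. Its differences of -2.00 and -2.02 were past 2-fold under every scaling.

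Timp4 read 5.83, 4.78 and 4.73, under background in each column. Its differences of -1.05 and -1.10 from Ctrl were past 2-fold with only 1 of the 4 scalings (-1.65 to -0.61 in Med). The summed level of 7 fibroblast markers was 11.14, 10.60 and 10.91 as log2, with 6, 5 and 5 above background. Among them Acta2 read 9.67, 6.42 and 6.42, and Pdgfra went the other way, at 7.26, 9.79 and 10.27. Their part in the values of Timp3 and Timp4 was not tested.

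The genes under the filter had shares of 2-fold lower values near those of all genes under it. In Med 15 of the 58 were below Ctrl by 2-fold or more and 1 above, beside 24% and 1.81% of all genes under the filter. In Hi 16 were below and 1 above, beside 22.5% and 1.5%. With no filter, 10 of the 78 lay above and 17 below Ctrl in Med, beside 18.3% and 16.3% of all genes. In Hi 8 lay above and 18 below, beside 17.5% and 15.4% of all genes. Of the lower calls under the filter only 2 in Med (Timp3 and Mmp17) and 1 in Hi (Timp3) were past 2-fold under every scaling. Receptor genes, at background, were also lower than Ctrl at the median (-0.39 in Med).

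**Figure D4:**
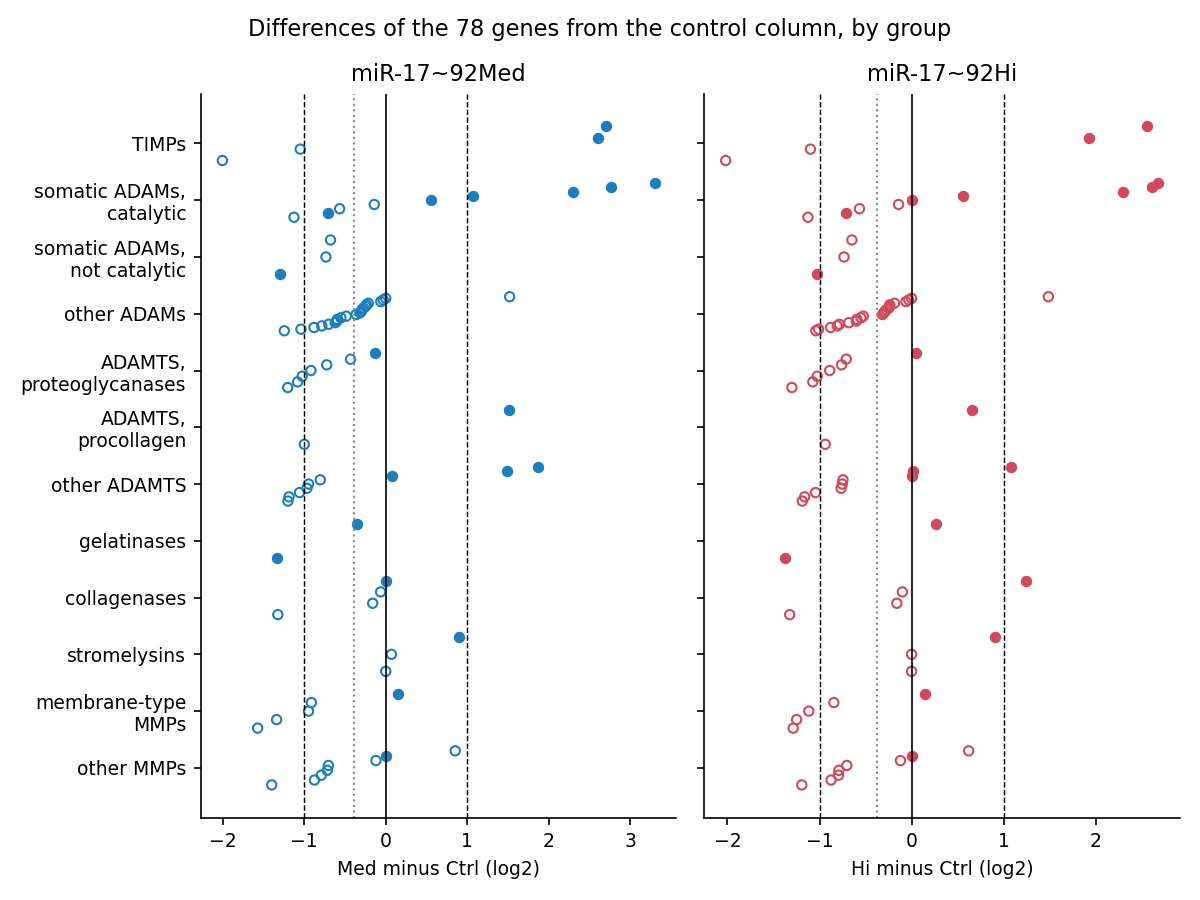
Med minus Ctrl and Hi minus Ctrl (log2) for the 78 genes by functional group, with genes past the expression filter filled and the others open. The dotted line is the median of receptor genes (-0.39 and -0.38) and dashed lines are 2-fold. Most open points lie below 0, and the highest filled points are ADAM sheddases and TIMPs.

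Hi against Med does not use Ctrl, and a larger share of these genes than of all genes was 2-fold apart in it: 3 of the 20 past the filter (15%) against 154 of 9969 genes (1.54%). No test of that difference was made. Of the 20 genes past the filter 1 was at least 2-fold above Med in Hi, Mmp13, and 2 were as far below, Adam8 and Adamts7, beside 0.682% and 0.863% of all genes past the filter. With no filter the counts over the 78 genes were the same, beside 0.406% and 0.512% of all genes. Quantile normalization left 1 higher and 1 lower, since Adam8 then differed by -0.90. At 1.5-fold 2 of the 20 were higher and 6 lower, beside 1.73% and 3.48% of all genes past the filter. The median was -0.02 over the 20 genes and 0 over all genes past the filter.

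Below 2-fold, Adamts14 (-0.85), Adamts6 (-0.79), Timp1 (-0.68) and Adam9 (-0.62) were lower in Hi than in Med, and Mmp9 was 0.62 higher. Receptor genes gave differences from -0.61 to 0.66 in this comparison, with an SD over genes of 0.088 and 0 past 2-fold. The 3 called genes, Adamts14 and Adamts6 lie outside that range, Timp1 and Adam9 only just, and Mmp9 lies within it. Receptor genes are at background, and 822 of the 1190 were identical in Hi and Med. Their range therefore does not gauge the spread of expressed genes between columns. In all 3 called genes the Ctrl value was identical to that of Hi or Med, as it was in 10 of the 154 genes past the filter that were 2-fold apart (6.49%). Identical values were common in the table: Med and Hi agreed in every digit in 33 of the 78 genes (42.3%) and in 51.1% of all genes.

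**Figure D5:**
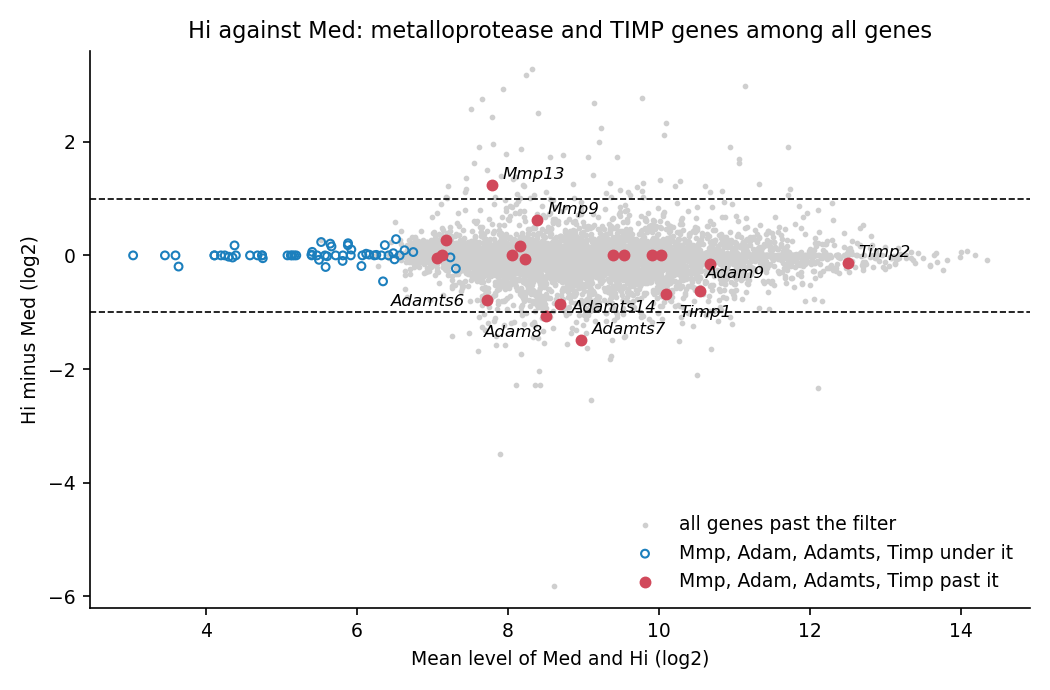
Hi minus Med (log2) against the mean level of Med and Hi, with genes past the filter in grey and the Mmp, Adam, Adamts and Timp genes in colour (filled past the filter, open under it). Dashed lines are 2-fold: Mmp13 lies above at 1.24, and Adamts7 (-1.49) and Adam8 (-1.06) lie below.

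The levels of the cluster are graded, and where Hi and Ctrl were 2-fold apart the position of Med was recorded. Of the 9 such genes past the filter Med lay between Ctrl and Hi in 1 (Mmp2), was identical to Hi in 1 (Adam10) and to Ctrl in 1 (Mmp13). It lay beyond Hi in 6: Adam9, Adam11, Adam17, Adamts6, Timp1 and Timp2. Among 4172 such genes in all, Med lay between in 1126 and beyond Hi in 2023. Hi minus Med in these 6 was -0.14 for Timp2, -0.15 for Adam17, 0.28 for Adam11, -0.62 for Adam9, -0.68 for Timp1 and -0.79 for Adamts6.

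Other genes of the pericellular proteolysis system were read from short lists. Of 9 plasminogen system genes 7 passed the filter. In Med 6 of these lay 2-fold above Ctrl and 1 below, and in Hi 5 above and 1 below. The shares of all genes past the filter were 34.9% above and 8.7% below in Med, and 33.5% and 8.4% in Hi. Plau, the urokinase that makes plasmin, which in turn activates several MMPs, read 6.97, 9.32 and 8.64. Its receptor Plaur read 7.59, 9.84 and 10.11. S100a10, a plasminogen receptor subunit, read 7.71, 12.51 and 12.45.

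Of 16 activators and regulators 11 passed the filter. In Med 4 of these lay 2-fold above Ctrl and 1 below, and in Hi 3 above and 1 below. These counts are near the shares of all genes past the filter (34.9% above and 8.7% below in Med, 33.5% and 8.4% in Hi). They say nothing particular to the list. Bsg, an inducer of MMPs, read 8.50, 11.16 and 11.16, and Lrp1, the receptor that clears several proteases and TIMPs, read 9.06, 11.78 and 10.86. Tspan15, a tetraspanin partner of Adam10, was highest in Med, at 7.42, 9.71 and 8.35, and lower in Hi than in Med by -1.37. Reck, a membrane inhibitor of MMPs, read 6.70, 4.81 and 4.81, under background in each column.

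Of 24 substrates shed by ADAM10 or ADAM17, 14 passed the filter, with 8 at least 2-fold above and 2 below Ctrl in Med, and the same counts in Hi. Cd44, the hyaluronan receptor, read 6.10, 9.81 and 9.39, and Sdc4, a cell surface proteoglycan, read 9.05, 11.11 and 11.48. The 2 lower ones were Notch1, at 8.46, 7.02 and 7.45, and L1cam, at 8.05, 7.04 and 7.04. Cx3cl1, a membrane-bound chemokine, was high in Hi alone, at 7.90, 8.11 and 10.34. Of all genes past the filter 34.9% were higher and 8.7% lower in Med, and 33.5% and 8.4% in Hi. The lists were counted beside these shares without a test.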

How the data were processed

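One column of log2 array values per group was analysed for total RNA of CT26 cells. Per the labels' protocols the RNA was amplified with random primers, labelled with biotin and hybridized to an Affymetrix array. The submitters' processing notes name Affymetrix Expression Console and GCRMA, with no role, order or version. Any background correction, scaling between arrays or averaging of subclones came before the deposited values. Whether the arrays were scaled to each other is not stated. The medians over probe sets were 6.95, 6.65 and 6.66 in Ctrl, Med and Hi. The deposited values were taken as log2 from their range, as no source used here states the base. The number of arrays limits the precision, and no interval is given.

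Of 35556 probe sets 21789 were listed under 1 gene by GEO's platform annotation, 1621 under several and 12146 under none, and 21698 of the first were matched to RefSeq (GRCm38.p6) for current symbols. Probe sets of a gene were averaged. All 78 metalloprotease and TIMP genes matched. No value column was left unmapped (0). A gene was called when 2 columns differed by a log2 value of 1 or more (2-fold), and with 1 sample per group no test was run. The genes described, the lists and the thresholds were chosen with earlier results of these data known. Named were genes past the filter and 2-fold apart in any comparison, a set of well-known family members, the 5 under the filter that were furthest apart and up to 3 per list. Mmp19, Mmp10, Mmp8 and the other genes named besides were chosen after their values were seen. Alternatives were other scalings (centring on all probe sets or on genes past the filter, quantile normalization, loess with span 0.4), other filters, the highest probe set and a 1.5-fold threshold. A planned search of protein sequences is not analysed here. The counting steps were tested on simulated data. Python 3.11.15, numpy 2.4.6, pandas 2.3.3 and statsmodels 0.14.6 were used.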

Additional observations from a re-analysis of the deposited data

How the results depend on the processing

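No paired analysis was possible because each group has 1 column. With no replicates no spread limits a difference, and signal near background limits the genes under the filter. In Med against Ctrl the count of lower genes (2) became 17 of 78 with no filter, 11 of 38 with a filter on background and 5 of 23 with the highest probe set of a gene, beside 16.3%, 17.4% and 8.84% of all genes in those sets. In Hi against Ctrl the count of lower genes (2) became 1 with centring on all probe sets and with loess, 18 of 78 with no filter, 11 of 38 with a filter on background and 5 of 23 with the highest probe set, beside 15.4%, 16.5% and 8.58% of all genes in those sets. In Hi against Med a 1.5-fold threshold gave 2 higher and 6 lower in place of 1 and 2, and quantile normalization gave 1 lower. The counts of higher genes against Ctrl stayed within 1.5 times under each setting tried. The cause of each change was not tested.

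The median difference in Med against Ctrl (0.72) was 1.02 with centring on all probe sets, 0.16 with quantile normalization, 0.38 with loess, -0.56 with no filter, 0.87 with the filter on Med and Hi alone, -0.063 with the background filter, 0.15 with the highest probe set and 0.13 with centring on genes past the filter, a setting added after the data were seen. In Hi against Ctrl (0.41) the same settings gave 0.70, -0.32, -0.070, -0.58, 0.59, 0, 0.15 and -0.13. In Hi against Med (-0.02) they gave -0.029, -0.016, -0.023, 0, -0.037, 0, 0 and 0.037. With the 99th percentile of receptor genes as background, 17 genes in Ctrl and 22 in Med were above it. For the place of Med, the count between (1) became 2 with centring on all probe sets, 3 with quantile normalization, 5 with no filter and 2 with the highest probe set, and the count beyond Hi (6) became 14 with no filter. Loess was not run for the place of Med, since it treats each pair of columns separately. The search of protein motifs was not run.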

Other observations

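Of 16 cathepsin and cystatin genes 8 passed the filter, and 7 of these lay 2-fold or more above Ctrl and 0 below in Med and in Hi, with medians of 3.59 in Med and 4.14 in Hi on the log2 difference scale. Over all genes past the filter 34.9% were above and 8.7% below in Med, and 33.5% and 8.4% in Hi. Of the 8 under the filter 7 were lower than Ctrl in Med and Hi and Ctsk was identical. Ctsf, one of them, read 7.47, 6.05 and 6.06, which is past 2-fold. Ctsl, a lysosomal cysteine protease, read 7.92 in Ctrl, 13.68 in Med and 13.49 in Hi. Ctsb, another, read 7.51, 12.41 and 12.37, and Cst3, a secreted inhibitor of such proteases, read 7.94, 13.09 and 13.04. The Ctrl column stood apart in its mitochondrial mRNAs, whose part in these values was not tested.

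Of the astacins, meprins and their enhancers 3 passed the filter, and 2 were 2-fold higher in each comparison against Ctrl. The higher share of all genes past the filter was 34.9% in Med and 33.5% in Hi. Pcolce, which speeds the trimming of procollagen by Bmp1, read 8.05, 11.99 and 12.61, Pcolce2 read 7.77, 9.37 and 8.81, and Bmp1 itself read 9.30, 10.17 and 9.96. Of the ADAMTS-like genes, which lack a protease domain, 4 passed the filter. Of these 0 were 2-fold higher and 2 lower in each comparison against Ctrl. The lower share of all genes past the filter was 8.7% in Med and 8.4% in Hi. Papln read 8.03, 6.82 and 6.72, and Adamtsl2 read 7.87, 6.80 and 6.80. Of the hyalectans, substrates of the aggrecanases, 1 passed the filter, Ncan, at 8.09, 6.84 and 6.85.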
